A study of Rattus norvegicus with 12 samples.

Results

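Coagulation and fibrinolysis genes, 6 in number, were followed in cultured primary retinal ganglion cells (RGCs) of the rat, the output neurons of the retina, after exposure to 3 endothelin peptides. The 6 genes are F3 (tissue factor), Thbd (thrombomodulin), Plat (tissue plasminogen activator, tPA), Plau (urokinase, uPA), Plaur (the urokinase receptor, uPAR) and Serpine2 (protease nexin-1). They were grouped because F3 was higher and Thbd was lower after endothelin on these same arrays, so their changes against untreated cells are given as a description, without a test. Every probe set annotated with 1 of these 6 symbols and no other was used, which gave 10 probe sets of the 31042 on the array, and 6 genes of the 14217 that have such a probe set.

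The endothelin-treated groups received 100 nM ET-1, 100 nM ET-2 or 100 nM ET-3 for 24 h, and the control cells are untreated by the labels' titles but vehicle-treated by their descriptions. Cells of all 4 groups were isolated by Thy-1.1 antibody panning from Sprague-Dawley pups of postnatal days 4 to 6. They spent 7 days in serum-free culture supported by 2 neurotrophic factors (BDNF and CNTF) and forskolin, then a night without the neurotrophic factors. Each group had 3 arrays, numbered 1 to 3 as biological replicates, which makes 12 Affymetrix Rat Genome 230 2.0 arrays. The labels do not say whether a number marks a separate isolation of cells or how many pups were pooled, so the spread between arrays may be partly technical. Wherever 3 values stand for a group, they belong to replicates 1, 2 and 3 in that order.

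Tissue factor is the membrane protein that starts clotting by binding factor VII, which leads to thrombin. Thrombomodulin, on the surface of endothelium and some other cells, binds thrombin and turns it from a clotting enzyme into an activator of the anticoagulant protein C. The plasminogen activators tPA and uPA cut plasminogen to plasmin, which dissolves fibrin and other matrix proteins; uPAR holds uPA at the cell surface, and protease nexin-1 inhibits thrombin, uPA and tPA. In nervous tissue these proteins also act outside the circulation, through thrombin receptors and through proteolysis around cells.

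The arrays give a MAS5 signal for each probe set, in arbitrary units scaled to a common mean on each array. On all 12 arrays the markers of RGCs were high: 11 of the 12 listed genes were measured and tested, none passed the test against untreated cells for any endothelin, and their summed signals ran from 86744 to 124532 with ET-1, from 90294 to 127057 with ET-2, from 86218 to 134577 with ET-3 and from 84951 to 121332 in untreated cells. In each group the lowest of these sums was that of replicate 1. Replicate 1 also stood apart in all 4 groups by the summed signal of markers of fibroblasts and pericytes. Their summed signal over 10 genes was 51700 with ET-1, 55350 with ET-2, 49641 with ET-3 and 48610 in untreated cells. On the 8 arrays of replicates 2 and 3 that sum was 7894 to 11373. The collagen genes, Dcn, Lum and Pdgfra made up most of the difference, and not every marker followed it. Acta2 was lowest in replicate 1 in every group (544, 687 and 793 in untreated cells). Cspg4 was lowest there with each endothelin, and Rgs5 lay between 19.3 and 56.9 on all arrays. Arrays of the same number deviated from their group means together (r from 0.68 to 0.91 over tested probe sets, 18 pairs), so every change was fitted with the replicate number as a block. RNA was taken from whole cultures, in which fewer cells of a type and less RNA per cell cannot be told apart.

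F3, the trigger of clotting, was higher with each endothelin than in untreated cells at every replicate number. Its signal was 2611, 590.4 and 638 with ET-1, 2770.4, 401 and 544 with ET-2, and 2720.2, 633 and 539 with ET-3, against 627, 211 and 324 in untreated cells. The untreated array of replicate 1 reached the level of the treated arrays of replicates 2 and 3, so the groups overlapped as a whole, whereas within each number the untreated array was the lowest. The log2 change was 1.51 ± 0.22 with ET-1 (2.84-fold), 1.27 ± 0.22 with ET-2 (2.42-fold) and 1.48 ± 0.22 with ET-3 (2.79-fold; SE, n = 3 arrays per group). Here and below, each SE is that of the fit, which takes the change as equal at every number. The size of the change differed by number: averaged over the 3 endothelins it was 2.11 in replicate 1, 1.33 in replicate 2 and 0.82 in replicate 3. The SD of the F3 change over the numbers was 0.54 with ET-1, 0.76 with ET-2 and 0.70 with ET-3. Without the arrays of replicate 1, the change with ET-2 was 0.84.

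Replicate 1 was also the number with the highest sum of fibroblast and pericyte markers. Within it, the marker sum of the endothelin-treated arrays was 49641 to 55350, against 48610 on the untreated array, while F3 was 4.16-fold higher with ET-1, 4.42-fold with ET-2 and 4.34-fold with ET-3. In replicate 2 the marker sum was 11373 with ET-1, 8822 with ET-2, 10678 with ET-3 and 11335.5 in untreated cells. The F3 signal there was 590.4 with ET-1, 401 with ET-2 and 633 with ET-3, against 211 in untreated cells. Among the treated arrays of replicate 2, the one with ET-2 was thus lowest in both. The untreated array had the lowest F3 but not the lowest sum. In replicate 3, where the marker sum was 9539 with ET-1, 7894 with ET-2, 8421 with ET-3 and 7906 in untreated cells, F3 was 1.97-fold higher with ET-1, 1.68-fold with ET-2 and 1.67-fold with ET-3. Of the 10 fibroblast and pericyte genes, 8 were tested. For the mean of the endothelins, 2 passed as higher (Pdgfrb, log2 change 1.02, and Acta2, 0.55) and 1 as lower (Col3a1, -0.27). Of all tested genes, 5.27% were called in either direction. Below the filter, Cspg4 changed by 1.10 and Rgs5 by 0.01. The lowest treated value of Cspg4 was 35.7, with ET-2, against at most 34.7 in untreated cells. The part of these cells in the F3 values was not tested.

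**Figure D1:**
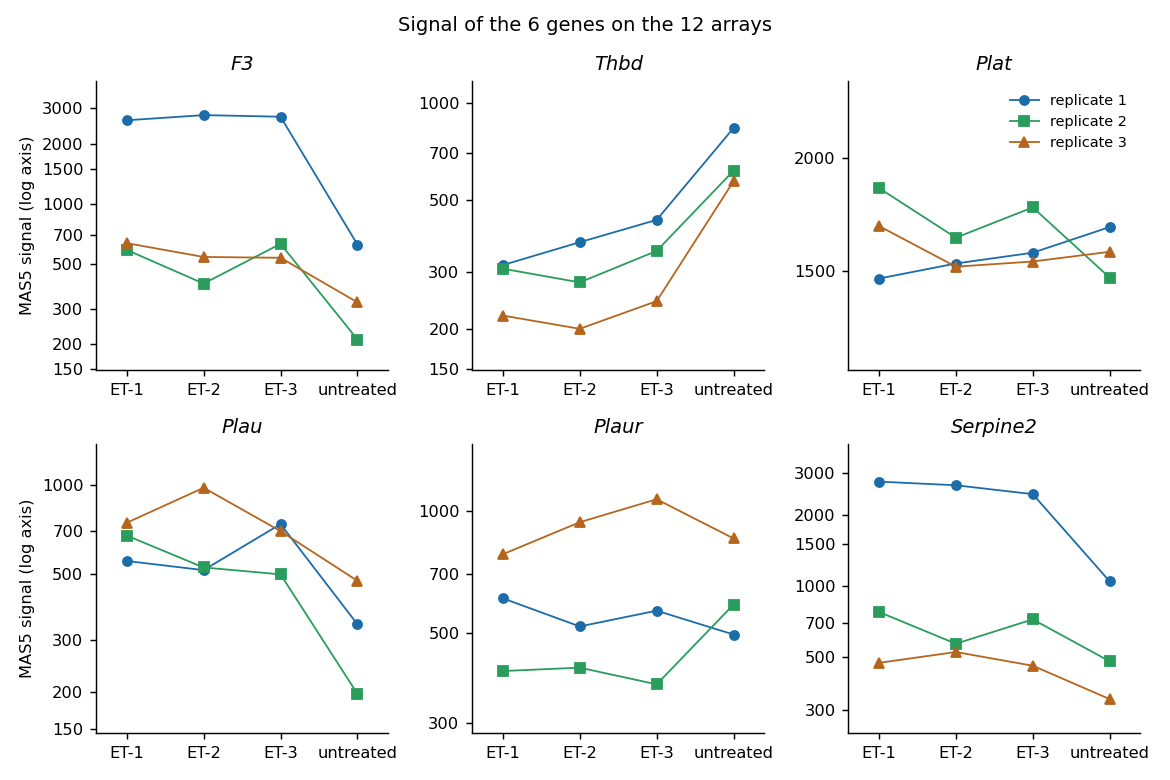
MAS5 signal (arbitrary units, log axis) of the 6 genes by group, with 1 line per replicate number (circles, squares and triangles for replicates 1, 2 and 3). F3 and Serpine2 lie higher in replicate 1 in every group and are lowest in untreated cells within each number, Thbd is highest in untreated cells, and Plat runs nearly flat between 1469 and 1853.

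Thbd, whose product converts thrombin into an anticoagulant enzyme, was lower with each endothelin. Its signal was 315, 307 and 219.8 with ET-1, 370.3, 278 and 200.03 with ET-2, and 434, 348 and 243 with ET-3, against 835, 616 and 572 in untreated cells. Every treated array lay below every untreated array, the highest treated value being 434 and the lowest untreated value 572. The log2 change was -1.26 ± 0.12 with ET-1 (0.416 of the untreated level), -1.28 ± 0.12 with ET-2 (0.412) and -0.999 ± 0.12 with ET-3 (0.500; SE, n = 3 arrays per group). Averaged over the endothelins, the change was -1.17 in replicate 1, -0.99 in replicate 2 and -1.37 in replicate 3.

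A second Thbd probe set, too dim for the filter on low signal, ran the same way. It gave 56.0, 42.3 and 83.5 with ET-1, 48.6, 30.4 and 62.5 with ET-2, and 57.9, 56.2 and 73.5 with ET-3, against 152, 94.9 and 156 in untreated cells, with log2 changes of -1.17, -1.54 and -1.08. The third Thbd probe set lay between 2.73 and 55.2 on all arrays, and its change had an SE of 0.998, so it carries no direction. Thrombomodulin is best known from endothelium, and 8 of the 9 measured endothelial markers had a mean signal below the filter of 147.5. Pecam1 lay between 3.21 and 48.9, Tie1 between 4.34 and 44.7, Cldn5 between 3.93 and 52.1 and Vwf between 5.87 and 50.0. Others were brighter on some arrays: Kdr ran from 136 to 546, Flt1 from 22.4 to 208, and Emcn from 3.27 to 268.6, its highest value on the untreated array of replicate 1. The mean log2 change was 1.18 for Flt1 and -1.91 for Emcn, neither of them tested. All 9 together summed to 346 to 718 with ET-1, 454 to 785 with ET-2 and 481 to 795 with ET-3, against 707 to 869.6 in untreated cells. The 1 of them bright enough to be tested, Kdr, fell with ET-2 and in the mean of the endothelins (log2 change -0.58), and without it the sums were 210.1 to 320.1 with ET-1, 266 to 448 with ET-2 and 307 to 323 with ET-3, against 226 to 419 in untreated cells. The part of endothelial cells in the Thbd values was not tested.

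The 2 plasminogen activators differed from each other. Plau, which encodes uPA, had signals of 555, 677 and 747 with ET-1, 517, 528 and 982 with ET-2, and 739.7, 500.5 and 701 with ET-3, against 339, 197 and 476 in untreated cells. Every treated array lay above every untreated array, if only by 500.5 against 476 at the closest. The log2 change was 1.05 ± 0.20 with ET-1 (2.07-fold), 1.02 ± 0.20 with ET-2 (2.03-fold) and 1.01 ± 0.20 with ET-3 (2.01-fold; SE, n = 3 arrays per group). Averaged over the endothelins, it was 0.81, 1.51 and 0.75 in the 3 numbers, and without the arrays of replicate 2 the change with ET-1 was 0.68. Unlike F3, Plau therefore had its greatest mean change in replicate 2 and not in replicate 1. The second Plau probe set, below the filter, read 88.9, 62.7 and 292 with ET-1, 85.9, 61.5 and 370.4 with ET-2, and 151, 67.4 and 264 with ET-3, against 50.5, 33.7 and 171 in untreated cells. Its log2 changes were 0.83, 0.92 and 1.07, and it was higher with each endothelin at each number.

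Plat, which encodes tPA, the activator used to dissolve clots in patients, was close to level. Its signal was 1469, 1853 and 1681 with ET-1, 1527, 1632 and 1515 with ET-2, and 1570.0, 1763 and 1535 with ET-3, against 1677, 1473 and 1574 in untreated cells. The groups overlapped, and the treated arrays were lower than the untreated one in replicate 1 and higher in replicate 2. The log2 change was 0.08 ± 0.08 with ET-1, -0.01 ± 0.08 with ET-2 and 0.04 ± 0.08 with ET-3 (SE, n = 3 arrays per group). The 95% interval of the change averaged over the endothelins, from the fit, ran from -0.11 to 0.18. By number that change was -0.14, 0.25 and 0.0015 (SD 0.20), a spread that the interval does not measure.

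Plaur, the cell-surface receptor of uPA, showed no common direction. It had signals of 609, 403 and 782 with ET-1, 519, 411 and 938 with ET-2, and 568, 374 and 1068 with ET-3, against 496, 588 and 855 in untreated cells. The groups overlapped: the 3 treated arrays were above the untreated one in replicate 1, below it in replicate 2 and on both sides of it in replicate 3. Averaged over the endothelins, the log2 change was 0.19, -0.57 and 0.11 in the 3 numbers. The log2 change was -0.13 ± 0.16 with ET-1, -0.11 ± 0.16 with ET-2 and -0.05 ± 0.16 with ET-3 (SE, n = 3 arrays per group), and the 95% interval of the mean, from the fit, ran from -0.38 to 0.19. The SD of the mean change over the numbers was 0.42, a spread that this interval does not measure. The other Plaur probe set lay between 1.44 and 78.2 and carries no direction.

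Serpine2, whose product inhibits thrombin and both plasminogen activators, was higher with each endothelin at every number. Its signal was 2757, 778 and 474 with ET-1, 2662, 571 and 527 with ET-2, and 2441, 724 and 461 with ET-3, against 1046, 481 and 334 in untreated cells. As with F3, the groups overlapped as a whole. Untreated replicate 1, at 1046, lay above every treated array of replicates 2 and 3. Untreated replicate 2, at 481, also lay above replicate 3 with ET-1 (474) and with ET-3 (461). The log2 change was 0.87 ± 0.17 with ET-1 (1.82-fold), 0.75 ± 0.17 with ET-2 (1.68-fold) and 0.76 ± 0.17 with ET-3 (1.69-fold; SE, n = 3 arrays per group). Averaged over the endothelins it was 1.32 in replicate 1, 0.51 in replicate 2 and 0.54 in replicate 3, so replicate 1 again held the greatest change. The SD of the Serpine2 change over the numbers was 0.47 with ET-1, 0.56 with ET-2 and 0.41 with ET-3. Without the untreated array of replicate 1 alone, the Serpine2 change was 0.49 with ET-2, 0.49 with ET-3 and 0.53 for the mean, and without all arrays of replicate 1 it was 0.45 with ET-2.

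Counted over the 6 genes, Thbd and Plau were the 2 whose treated and untreated arrays did not overlap, for each of the endothelins. Of all tested genes, 5.29% did not overlap between ET-1 and untreated arrays, 5.5% between ET-2 and untreated arrays and 6.1% between ET-3 and untreated arrays. The 3 comparisons share the same 3 untreated arrays, so the likeness of their changes is not independent. Since the genes were picked on this contrast, their count is not read against that share.

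**Figure D2:**
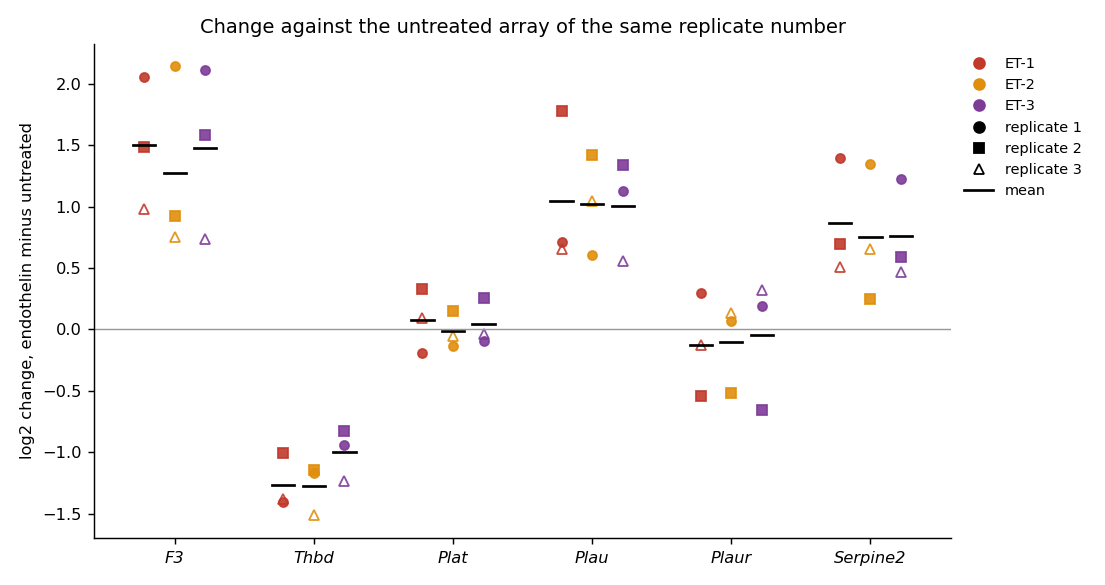
Log2 change against untreated cells of the same replicate number, for each of the 6 genes and each endothelin (symbols for replicates 1, 2 and 3, short lines for means). F3 ran from 0.74 to 2.14 and Serpine2 from 0.25 to 1.40, both with their greatest values in replicate 1; Thbd lay between -1.51 and -0.82, Plau between 0.56 and 1.78, and Plat and Plaur fell on both sides of 0.

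The peptides were then compared with each other, a contrast the choice of genes did not use. Endothelin-1 and endothelin-2 bind both endothelin receptors with high affinity, whereas endothelin-3 prefers the ETB receptor. By limma with Benjamini-Hochberg adjustment over 15521 probe sets, 0 of the 6 genes differed in any of the 3 pairs, as did 0 of the 9425 tested genes (0% for ET-2 against ET-1, 0% for ET-3 against ET-1 and 0% for ET-3 against ET-2). At an unadjusted p under 0.05, 574, 347 and 583 of the 15521 tested probe sets differed in these pairs. Of the 18 tests on the 6 genes, 2 fell under that unadjusted limit, both on Thbd.

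Both of these Thbd tests set ET-3 against another peptide, so they share the same ET-3 arrays and are not independent. Thbd was 1.20-fold higher with ET-3 than with ET-1 (log2 difference 0.26, 95% interval 0.0045 to 0.52, limma unadjusted p = 0.0467, adjusted p = 0.999645) and 1.21-fold higher with ET-3 than with ET-2 (0.28, 0.018 to 0.54, limma unadjusted p = 0.0377, adjusted p = 0.9989). It was higher with ET-3 in 3 of 3 replicate numbers in both pairs, and neither difference passed the adjusted threshold of 0.05. The second Thbd probe set, below the filter, gave 0.09 for ET-3 against ET-1 (95% interval -0.49 to 0.68). It was higher in 2 of 3 numbers there. For ET-3 against ET-2 it gave 0.46 (-0.13 to 1.04), higher in 3 of 3 numbers. Among the peptides the mean Thbd level was highest with ET-3, then ET-1, then ET-2, all below untreated cells, and ET-2 and ET-1 did not differ beyond their spread (-0.01, 95% interval -0.27 to 0.25).

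F3 ran highest with ET-1, then ET-3, then ET-2, then untreated cells, with geometric mean signals of 994, 975, 846 and 349.9. The F3 log2 difference was -0.23 for ET-2 against ET-1 (95% interval -0.71 to 0.24), -0.03 for ET-3 against ET-1 (-0.50 to 0.45) and 0.21 for ET-3 against ET-2 (-0.27 to 0.68). The treated neighbours in that order thus did not differ beyond their spread, although differences of up to 0.71 on the log2 scale lie within the intervals. For Plau the 3 differences were -0.02, -0.04 and -0.02, with intervals reaching from -0.48 to 0.42. Serpine2 gave -0.11, -0.11 and 0.01, within -0.47 to 0.37. Plat, with the narrowest intervals, gave -0.09, -0.04 and 0.06, within -0.27 to 0.24, and Plaur gave 0.02, 0.08 and 0.06, within -0.33 to 0.43. These intervals bound the differences between the peptides at 1 dose and 1 time, and do not show that the peptides act alike.

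**Figure D3:**
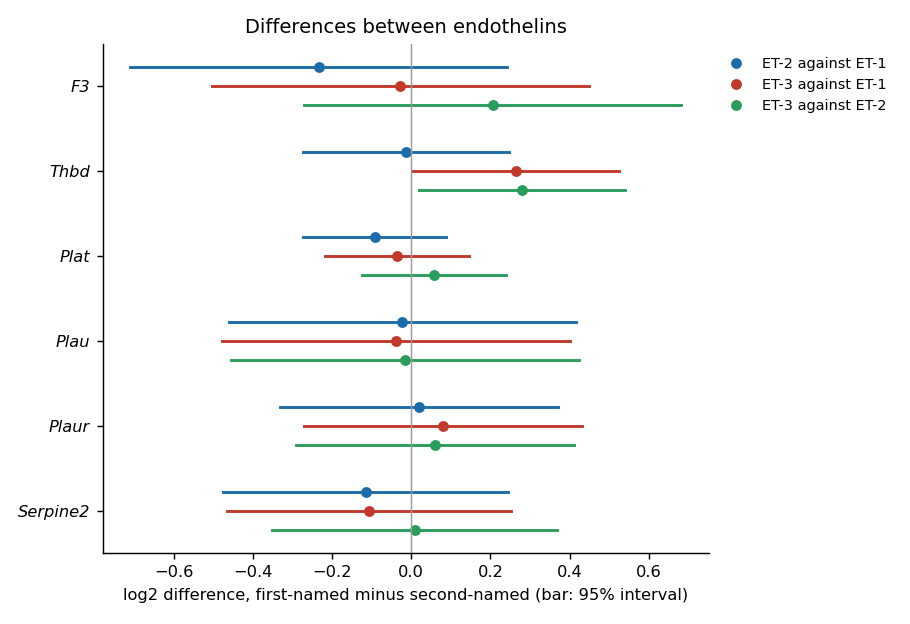
Log2 difference between pairs of endothelins for the 6 genes, with 95% intervals from the limma fit on 12 arrays. Only the 2 Thbd intervals against ET-3 lie clear of 0, by 0.0045 and 0.018 at their lower ends, and neither passed after adjustment.

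Levels were also compared between the replicate numbers. In the F test, 5 of the 6 genes passed (4 to 6 on leaving out single arrays), beside 71.7% of all tested genes, so this count is near the background and not a property of these genes. F3 had a geometric mean signal of 1874 in replicate 1, 422 in replicate 2 and 496 in replicate 3 (limma adjusted p = 1.16e-06). Serpine2 was likewise highest in replicate 1, at 2081, against 627 in replicate 2 and 443 in replicate 3 (limma adjusted p = 1.09e-07). Both genes were thus several-fold higher in the number with the high sum of fibroblast and pericyte markers, F3 by 4.44-fold and Serpine2 by 3.32-fold over replicate 2. Thbd was 453 in replicate 1, 368 in replicate 2 and 279.7 in replicate 3 (limma adjusted p = 0.000228). Plau was 518, 433 and 703 (limma adjusted p = 0.00938). Plaur was 546, 437 and 905 (limma adjusted p = 7.64e-05), so both genes of the urokinase pair were highest in replicate 3. Plat, at 1559, 1674 and 1575, did not pass (limma adjusted p = 0.371).

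**Figure D4:**
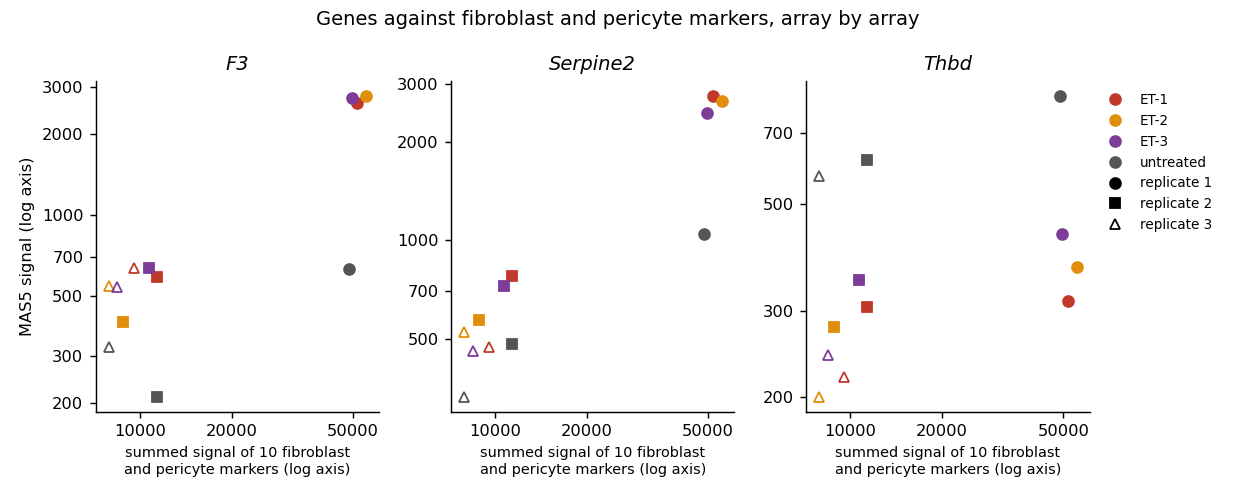
F3, Serpine2 and Thbd signal against the summed signal of the 10 fibroblast and pericyte markers on each array (log axes), by group and replicate number. The 4 arrays of replicate 1 stand at sums of 48610 to 55350 and the other 8 at 7894 to 11373, and within each number the untreated array has the lowest F3 and Serpine2 and the highest Thbd.

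After the mean of each replicate number was subtracted, F3 and Serpine2 followed each other closely over the 12 arrays (r = 0.96), while Thbd ran opposite to F3 (r = -0.83), to Serpine2 (r = -0.84) and to Plau (r = -0.81). These coefficients describe arrays that share the group difference for which the genes were chosen. Without the subtraction, r was 0.93 for F3 with Serpine2. For Thbd it was then -0.12 with F3, 0.12 with Serpine2 and -0.78 with Plau. Plat and Plaur, whose changes fell on both sides of 0, also reached r = -0.83 with each other after the subtraction. The genes most like F3 by this measure were Col4a1 (r = 0.99), a basement membrane collagen, Lima1 (0.99), an actin-binding protein, and Ccn1 (0.99), a secreted matrix protein. Serpine2 was closest to Lima1 (0.98), Flna (0.98), which crosslinks actin, and Enpep (0.98), a peptidase of the angiotensin pathway. Thbd was closest to Crym (0.96), a thyroid hormone-binding protein, Hmbox1 (0.94) and Mrpl48 (0.94). Plau was closest to Nes (0.97), the intermediate filament nestin, Ccnd1 (0.96), cyclin D1, and Flnc (0.95). Plat was closest to Lgmn (0.96), Bcor (0.96) and Pum2 (0.93), and Plaur to Eef2 (0.93), Cst3 (0.91) and Gpi (0.90).

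The sequences just before the gene are shown for the 3 of the 6 genes with a RefSeq promoter entry, because the pair that was higher with the endothelins, Plau and Serpine2, can be set beside Plaur, which was not. They are bases just before the gene's annotated span in build GRCr8, 5′ to 3′ on the gene's strand, 250 for Plau and Plaur and 200 for Serpine2, whose RefSeq entry has its start inside that span and was cut at its edge: chr15:3511988-3512237 (minus strand) for Plau, chr9:88637253-88637452 (minus strand) for Serpine2 and chr1:89181113-89181362 (plus strand) for Plaur. Capitals mark matches, on either strand, to 5 motifs: the AP-1 motif TGANTCA, the EGR motif GCGNGGGCG, the Sp1 motif GGGCGG, the cyclic AMP response element TGACGTCA and an NF-kB motif.
Plau: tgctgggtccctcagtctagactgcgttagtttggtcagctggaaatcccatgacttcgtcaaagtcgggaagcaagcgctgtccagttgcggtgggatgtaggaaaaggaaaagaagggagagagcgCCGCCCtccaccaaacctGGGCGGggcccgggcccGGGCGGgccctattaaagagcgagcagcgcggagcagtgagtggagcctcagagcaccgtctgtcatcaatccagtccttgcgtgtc
Serpine2: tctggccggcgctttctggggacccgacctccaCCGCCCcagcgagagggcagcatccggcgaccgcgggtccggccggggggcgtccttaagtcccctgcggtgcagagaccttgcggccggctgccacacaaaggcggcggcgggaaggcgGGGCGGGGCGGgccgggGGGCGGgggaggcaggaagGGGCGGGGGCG
Plaur: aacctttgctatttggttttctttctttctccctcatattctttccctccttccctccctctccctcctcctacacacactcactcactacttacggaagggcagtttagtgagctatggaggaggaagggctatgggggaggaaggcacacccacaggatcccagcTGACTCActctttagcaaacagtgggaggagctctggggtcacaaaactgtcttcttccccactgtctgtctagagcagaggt

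Plau held 3 Sp1 matches, at 122 to 117, 104 to 99 and 87 to 82 bases before the gene, the first of them on the opposite strand. Serpine2, with a GC content of 78.5% against 60% in Plau and 51.2% in Plaur, held 5 Sp1 matches, and 1 EGR match at 9 to 1 bases that overlaps the Sp1 match at 11 to 6. Plaur held no Sp1 match and 1 AP-1 match at 83 to 77 bases. No match to the cyclic AMP or NF-kB letters was found in these windows. Of 33469 rat promoter windows of 250 bases, 30.5% held the Sp1 letters, 6.34% the AP-1, 4.29% the EGR, 1.59% the cyclic AMP and 1.3% the NF-kB letters. Of the same windows cut to 200 bases, 24.2% held the Sp1 letters and 3.05% the EGR letters. F3, Thbd and Plat are named without a sequence.

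Transcription factors known from work on the F3 and Thbd promoters formed a list of 13 genes, of which 12 were measured and 11 tested. For the mean of the 3 endothelins, 3 of the 11 rose and none fell, against 5.27% of all tested genes called in either direction. They were Egr1, an immediate-early zinc finger factor, Fosl1, an AP-1 subunit, and Klf4, a zinc finger factor that in human endothelium raises thrombomodulin. Egr1 had signals of 3644, 1912 and 1256 with ET-1, 3425, 1410 and 1362 with ET-2, and 3471, 1853 and 1152 with ET-3, against 1822, 807 and 1121 in untreated cells. Within each number its untreated array was the lowest, by little in replicate 3. The log2 change of Egr1 was 0.80 ± 0.17 with ET-1 (SE, limma adjusted p = 0.0324), 0.72 ± 0.17 with ET-3 (adjusted p = 0.0435) and 0.73 ± 0.14 for the mean (adjusted p = 0.0100). With ET-2 it was 0.67, which did not pass (limma adjusted p = 0.079). Egr1 was the 1 gene of the list called with ET-1 and with ET-3, where 2.03% and 3% of all tested genes were called. With ET-2, limma called 0 of the 11, with 3 at an unadjusted p under 0.05, against 1.87% of all tested genes.

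Fosl1 rose by 0.97 ± 0.24 for the mean (limma adjusted p = 0.0354) and Klf4 by 0.67 ± 0.16 (adjusted p = 0.0305). Like F3, both had their greatest mean change in replicate 1: by number it was 1.99, 0.82 and 0.11 for Fosl1, 1.31, 0.53 and 0.18 for Klf4 and 0.95, 1.08 and 0.16 for Egr1, higher in 3 of 3 numbers for each. The SE and p of these genes come from a fit that takes the change as equal at every number, and do not measure this spread. The list's median change was 0.32, against -0.02 over all tested genes. Without the replicate block 0 of the 11 passed, and without the untreated array of replicate 1 the adjusted p was 0.155 for Fosl1 (log2 change 0.46), 0.169 for Klf4 (0.36) and 0.0764 for Egr1. The list was assembled with earlier results on these arrays known, so its count is not independent evidence of a direction.

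Of 45 other genes of coagulation, thrombin reception, anticoagulation and the plasminogen system, 39 were measured, 13 were bright enough to be tested and 26 lay below the filter, and 6 were not analysed here. Most plasma factors made by liver were among the dim ones: prothrombin (F2), factor X (F10), fibrinogen (Fga, Fgb, Fgg) and plasminogen (Plg) had mean signals of 31.7, 15.6, 27.5, 14.8, 22.9 and 35.7, under the filter of 147.5. Of the 13 tested, limma called 0 with ET-1 (4 at an unadjusted p under 0.05), 0 with ET-2 (3), 1 with ET-3 and 2 for the mean of the endothelins, all higher. These counts stand beside the shares of all tested genes given above, which depend on the scaling: for the mean of the endothelins, 549 probe sets of the array were higher and 209 lower as scaled by the authors, against 426 and 1066 after median centring of the arrays. The median change of the 13 was 0.05 for the mean of the endothelins, against -0.02 over all tested genes.

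F2r, the thrombin receptor PAR1, was the 1 tested receptor of the list. It had signals of 4964, 3747 and 1602 with ET-1, 4961, 3184 and 1647 with ET-2, and 4999.6, 3513 and 1611 with ET-3, against 2628, 2231 and 1723 in untreated cells. The treated arrays were higher in replicates 1 and 2 and lower in replicate 3, with mean log2 changes of 0.92, 0.64 and -0.09. For the mean of the endothelins F2r was called higher, by 0.49 ± 0.13 (SE, limma adjusted p = 0.0487, higher in 2 of 3 numbers). The fit takes the change as equal at every number, so this SE and p do not measure the spread between the numbers. The call was lost without the untreated array of replicate 1 (0.27, limma adjusted p = 0.298) and without the replicate block. The receptors F2rl1, F2rl2 and F2rl3 lay below the filter.

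A2m, alpha-2-macroglobulin, which traps plasmin and other proteases, was the other gene called. Its signal was 8896, 4696 and 2959 with ET-1, 9065, 4063 and 2508 with ET-2, and 8579, 5363 and 3079.8 with ET-3, against 7978, 2878 and 2365 in untreated cells. Within each number the untreated array was the lowest. It rose by 0.46 ± 0.11 with ET-3 (SE, limma adjusted p = 0.0463) and by 0.37 ± 0.09 for the mean (adjusted p = 0.0345, higher in 3 of 3 numbers). Replicate 2 carried the greatest change: without the untreated array of replicate 2 the change of the mean was 0.21 (limma adjusted p = 0.163), and without the replicate block the call was lost as well.

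Among the anticoagulants, Procr, the endothelial protein C receptor that works beside thrombomodulin, had the largest fitted change but did not pass (1.25 ± 0.35 for the mean, SE, limma adjusted p = 0.060). Its signal was 535, 85.0 and 136 with ET-1, 649, 80.1 and 139.8 with ET-2, and 762, 110.2 and 75.6 with ET-3, against 123, 33.0 and 120.2 in untreated cells. The treated arrays were higher in replicates 1 and 2, and on both sides of the untreated value in replicate 3. The mean signal of Procr was 150.9, just above the filter of 147.5. Only the treated arrays of replicate 1 exceeded that filter, and every untreated array lay below it. Procr was therefore bright enough to be tested only through those treated arrays, and its fitted change rests on dim untreated values. Gas6, a vitamin K-dependent ligand of the TAM receptors, changed by -0.13, Tfpi, the inhibitor of the tissue factor pathway, by -0.08, and Pros1, protein S, by 0.05, and none passed. A second tested probe set gave -0.17 for Gas6 and 0.06 for Tfpi. In the plasminogen list, Anxa2, a cell-surface plasminogen-binding protein, stood at 0.10, the tPA inhibitor Serpini1 (neuroserpin) at -0.08, the plasminogen receptor Plgrkt at -0.08 and Lrp1, an endocytic receptor, at -0.07, and none passed. A second tested Serpini1 probe set gave -0.19. F8, the 1 tested coagulation factor, changed by 0.12 ± 0.16 (SE) and did not pass.

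**Figure D5:**
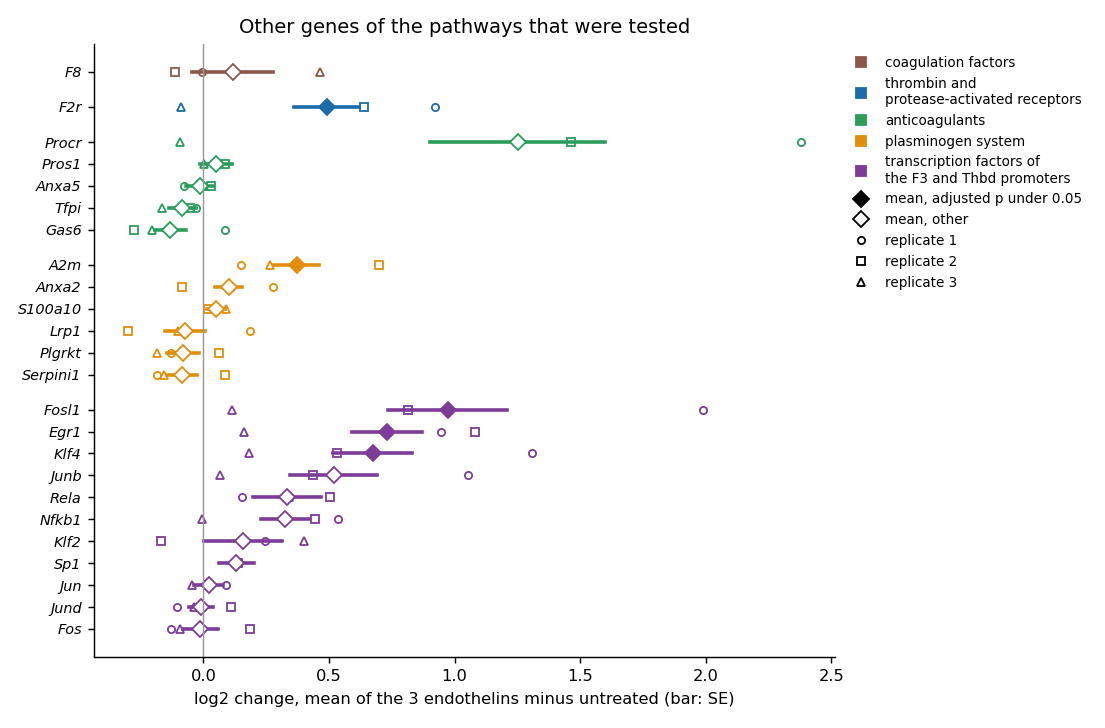
Log2 change of the mean of the 3 endothelins against untreated cells for the 13 tested pathway genes and the 11 tested transcription factors (diamonds, with SE bars), beside the value of each replicate number (small open symbols). Filled diamonds mark A2m, F2r, Egr1, Fosl1 and Klf4, which passed the test; Procr, at 1.25 with an SE of 0.35, did not, and its values run from -0.09 in replicate 3 to 2.38 in replicate 1.

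Other cell types gave these values beside the changes. Of 9 measured markers of astrocytes and Mueller glia, Vim, an intermediate filament gene that many cells use, rose (log2 change 0.67); the other 8 summed to 1887 to 2388 with ET-1, 1934 to 2151 with ET-2 and 1946 to 2264 with ET-3, against 2013 to 2096 in untreated cells. The 10 markers of microglia and macrophages summed to 2405 to 3799.7 with ET-1, 2237 to 3526 with ET-2 and 2255 to 4523 with ET-3, against 2494 to 3262 in untreated cells, and 0 of the 7 tested by limma passed. The 6 measured photoreceptor markers, all below the filter, summed to 48.7 to 167 over the 12 arrays. The 9 measured markers of amacrine, bipolar and horizontal cells summed to 1548 to 2014 with ET-1, 1368 to 1914 with ET-2 and 1413.5 to 1866 with ET-3. In untreated cells they summed to 1324 to 2149, and 0 of the 4 tested by limma passed. Within each group Tfap2b and Gad1 were highest in replicate 1, and Prox1 and Slc6a9 lowest. Tfap2b stood at 786 to 1044 there, against 207 to 352 in the other numbers. The part of these cells in the results was not tested.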

How the data were processed

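RNA of 12 cultures of rat retinal ganglion cells was hybridised to Affymetrix Rat Genome 230 2.0 arrays, 3 per group. The authors deposited an intensity for each of 31042 probe sets, made with MAS5 per the submitters' processing notes, of a version not given in the sources used here. On each array, the 2% trimmed mean of the deposited intensity was 497 to 498 and the median 136 to 181, so values were taken as already scaled. Detection calls were not used here. No 2 arrays held identical values. The number of arrays limits the precision.

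Names came from the platform's annotation of probe sets, 20826 with 1 symbol, 436 with several and 9780 with none; only the first kind was named. The probe set with the highest mean log2 signal stood for a gene. Log2 intensities, without pseudocount or further normalization, were fitted with limma 3.58.1 in R 4.3.3: group and replicate number as a block, all 12 arrays, eBayes with an intensity trend, two-sided tests, Benjamini-Hochberg over the 15521 probe sets (9425 genes) whose mean log2 signal reached the median of all (a signal of 147.5), threshold 0.05. One probe set of each of the 6 genes passed this filter. The block was used because same-numbered arrays deviated together (r 0.68 to 0.91 in 18 pairs, against -0.71 to -0.06 in 36 pairs of unlike number), as a hint from the data, since the labels do not define the number; it moved the median residual SD to 0.127, against 0.250 without it. The fit took the change as equal at every replicate number. Where the treated arrays of a number shift together against its untreated array, the SE, intervals and p-values against untreated cells can be too small. The fit was tested on simulated data, which held independent deviations and the same change at every number.

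The 6 genes and all lists were chosen with earlier results of these data known. Named besides the 6 were list genes past the threshold, up to 4 per pathway list of the largest mean change that did not pass, and the 3 genes with the highest Pearson r to each of the 6 after subtracting replicate-number means; the dim plasma factors were named after their values were seen. Promoter sequences are RefSeq's (GRCr8). Alternatives were no block, a pseudocount of 16, no filter, median centring, quantile normalization, the mean of a gene's tested probe sets, only the groups compared, and leaving out arrays.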

Additional observations from a re-analysis of the deposited data

How the results depend on the processing

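The signs of F3, Thbd, Plau and Serpine2 against untreated cells held in each contrast under all 16 alternatives (21 for the mean of the endothelins): the mean log2 change ran from 1.08 to 1.72 for F3, from -1.27 to -1.08 for Thbd, from 0.78 to 1.16 for Plau and from 0.53 to 0.93 for Serpine2. Plat and Plaur changed sign under some, within -0.07 to 0.12 and -0.23 to 0.15 for the mean. Between endothelins 0 of the 6 genes passed under any alternative run, leaving out arrays included (0 to 0), and the lowest limma adjusted p was 0.613. The calls in the lists were less stable. With no replicate block, 0 of the pathway genes passed for ET-3 (1 as reported) and 0 for the mean (2 as reported). Of the transcription factors, 0 passed for ET-1, ET-3 and the mean (1, 1 and 3 as reported). The 15521 tested probe sets then gave 0 calls in every contrast. At an unadjusted p under 0.05 there were 237, 223, 297 and 397 of them for ET-1, ET-2, ET-3 and the mean. With no filter the counts were 0 pathway genes for ET-3 and 0 for the mean, and 0 transcription factors for ET-1 and ET-3. With arrays centred on the median they were 0 pathway genes for ET-3 and 1 for the mean, and 0 transcription factors for ET-1 and ET-3. Quantile normalization gave 0 pathway genes for ET-3 and 1 for the mean. The fit of only the groups compared gave 0 pathway genes for ET-3 and 0 transcription factors for ET-1 and ET-3. Leaving out arrays, pathway counts ran from 0 to 2 for ET-1 and for ET-2, and from 0 to 3 for ET-3 and for the mean; transcription factor counts ran from 0 to 4 for ET-1, 0 to 2 for ET-2, 0 to 4 for ET-3 and 0 to 5 for the mean. The count of the 6 genes that differed by replicate number ran from 4 (without ET-2 replicate 3) to 6 (without untreated replicate 2). By gene, the call was lost in 14 of 21 alternatives for F2r, 11 of 21 for A2m, 13 of 21 for Fosl1, 11 of 21 for Klf4 and 5 of 21 for Egr1 in the mean, and in 10 of 16 for A2m with ET-3, Egr1 with ET-1 and Egr1 with ET-3, with no sign reversed; the cause was not tested. Over the tested probe sets, centring moved the median change by -0.02 with ET-1, -0.10 with ET-2, -0.05 with ET-3 and -0.06 for the mean. It also changed the calls, to 193 higher and 1025 lower probe sets with ET-2 (199 and 50 as reported). With ET-3 they were 228 and 218 (331 and 79), and for the mean 426 and 1066 (549 and 209). With no filter, ET-2 had 135 calls in place of 249. The fit of only the groups compared was not run for the mean, nor were no block, only the groups compared and leaving out a whole number for the test of the replicate number, which they leave undefined or alter. Signals near the filter, such as those of the second Thbd and Plau probe sets, carry larger errors than bright ones.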
